A study of Dendroctonus valens with 12 samples.

Results

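The red turpentine beetle *Dendroctonus valens* expressed 3 unigenes annotated as the main motor and filament proteins of muscle, and their levels differed widely between months and stages. A unigene is an assembled transcript that stands for 1 gene or for a piece of 1. The members are muscle myosin heavy chain TRINITY_DN25111_c1_g1, whose best protein match is isoform X3 of the muscle myosin heavy chain of *D. ponderosae*, muscle myosin heavy chain TRINITY_DN18232_c0_g1, whose best match is isoform X13 of that protein, and muscle actin TRINITY_DN22247_c2_g1, matched to muscle actin of the beetle *Tribolium castaneum*. They are 3 of 58956 unigenes with a value in each library. They were chosen by name with their FPKM in all 12 libraries known, and both myosins stand on the study's own list of unigenes that changed between months in larvae and in adults. Their levels and differences are therefore given as a description with no p-value.

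Each of the 12 libraries was made from 1 whole, field-collected insect, in 4 groups of 3: January adults, May adults, January larvae and May larvae. The sample labels call the January insects cold and the May insects normal, and the study's methods give the months. The larvae were late instars, the sex of the insects was not given in the sources used here, and no treatment was applied beyond the season of collection. Because month, collection day and field conditions go together in every insect, they cannot be told apart.

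A muscle shortens when thick filaments of myosin pull on thin filaments of actin inside a repeated unit, the sarcomere. The myosin heavy chain carries the motor head and the tail that packs into the thick filament, and troponin and tropomyosin on the thin filament hold the motor off until calcium arrives. In *Drosophila* the different muscle myosins are splice forms of a shared heavy chain gene, whereas muscle actins come from several closely alike genes, some of them used mainly in adult flight muscle and others mainly in larvae.

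FPKM divides the fragments assigned to a unigene by its length and by the mapped total of its library, so it can be compared between genes of unlike length. The FPKM of a library summed to between 787758 and 1788297, and between 8291 and 28292 unigenes reached 1 FPKM. May larvae had 8291 to 16681 such unigenes, which overlapped the ranges of May adults (16595 to 21622) and January larvae (15028 to 25771), and 34330 to 45587 unigenes listed at 0. January larva 3 and May larva 1 shared 4823 unigenes that stayed under 0.1 FPKM in the other 4 larvae. These unigenes took 4.88% and 4.07% of the FPKM sum of January larva 3 and May larva 1. They took 3.02% to 9.51% in January adults and 0.148% to 1.15% in May adults, which did not overlap. Their part in the adult differences was not tested. The 59 unigenes with a nematode match took at most 0.257% of a library. They were found among only 1999 best protein matches, so nematode RNA may take more. The study reports nematode contamination of some sequences and their removal before a new annotation. How many remain among the 58956 unigenes used here was not tested.

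Myosin DN25111_c1_g1 was the more abundant of the 2 myosins in every library, and it was far lower in January than in May in both stages. January adults had 3.85, 41.7 and 24.7 FPKM, against 1697, 738 and 1030 FPKM in May adults. January larvae had 17.9, 21.0 and 15.4 FPKM, against 186, 598 and 112 FPKM in May larvae. Every January insect lay below every May insect of its stage, and the nearest libraries differed 17.7-fold in adults and 5.32-fold in larvae. Of 28117 unigenes that reached 1 FPKM in 3 or more libraries, 473 (1.68%) were likewise lower in January without overlap in both stages.

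On means, May exceeded January 49.3-fold in adults and 16.5-fold in larvae. January adults averaged 23.4 ± 19.0 FPKM and May adults 1155 ± 492 FPKM, and January larvae averaged 18.1 ± 2.82 FPKM and May larvae 299 ± 262 FPKM (SD, n = 3 each). The log2 difference, on the log2(FPKM + 1) scale used throughout, was -5.96 (SE 0.78) in adults and -3.62 (SE 0.62) in larvae. In May adults this unigene ranked between 44 and 123 among all unigenes of its library and took 0.0937% to 0.205% of the FPKM sum. In January adults it ranked between 3234 and 18193.

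The order of the groups for DN25111_c1_g1 was May adults, May larvae, and then both January groups, which overlapped. January adults and January larvae differed by -0.12 (SE 0.86) on the log2 scale, and January adult 1, at 3.85 FPKM, was the lowest insect of all. May adults and May larvae did not overlap, but the lowest adult was only 1.23-fold above the highest larva, and the log2 difference was 2.23 (SE 0.69). That stage difference was 0.84 when libraries were scaled by the median of their ratios, with factors of 0.401 to 0.601 for the May larvae. The January against May effect in adults minus that in larvae was -2.35 (SE 1.10) with FPKM as deposited and -0.92 with that scaling.

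Myosin DN18232_c0_g1 was a minor transcript with another seasonal pattern in larvae. January adults had 1.37, 2.84 and 3.74 FPKM, against 21.6, 4.61 and 19.8 FPKM in May adults. January larvae had 3.16, 2.46 and 1.37 FPKM, and all 3 May larvae were listed at 0. In adults every January insect was therefore below every May insect, whereas in larvae every January insect was above every May insect. The same held for 1039 (3.7%) of 28117 unigenes that reached 1 FPKM in 3 or more libraries.

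In adults the nearest libraries differed 1.23-fold, since May adult 2 had only 4.61 FPKM. January adults averaged 2.65 ± 1.2 FPKM and May adults 15.3 ± 9.31 FPKM (SD, n = 3 each), a 5.78-fold excess in May and a log2 difference of -1.98 (SE 0.65). No fold is given against the May larvae, because a value listed at 0 without read numbers has no lower limit. Of 1494 unigenes that lay between 1 and 5 FPKM in all 3 January larvae, as this one did, 298 (19.9%) were listed at 0 in all 3 May larvae, a range chosen after the values were seen. January adults and January larvae overlapped, with a log2 difference of 0.11 (SE 0.68).

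The muscle actin unigene DN22247_c2_g1 reached 1 FPKM only in adults, and it was one of the most abundant in May adults. January adults had 210, 165 and 19.98 FPKM, against 3081, 3407 and 4796 FPKM in May adults. January larvae had 0.31, 0.25 and 0.18 FPKM, and May larvae had 0.08, 0.18 and 0 FPKM. Both adult groups stood apart from all larvae and from each other, while the larval groups overlapped below 1 FPKM.

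January adults averaged 132 ± 99.4 FPKM and May adults 3761 ± 910 FPKM (SD, n = 3 each), 28.5-fold more in May, with 14.7-fold between the nearest libraries. The log2 difference between January and May adults was -5.35 (SE 0.79). In May adults the unigene ranked 26, 16 and 18 in its library and took 0.372% to 0.606% of the FPKM sum. January adult 3 was far below the other 2 January adults. Against larvae of the same month the log2 difference was 6.18 (SE 0.95) for January adults and 11.73 (SE 0.26) for May adults, and the lowest January adult was still 64.5-fold above the highest January larva. The January against May effect in adults minus that in larvae was -5.55 (SE 0.99), where the larval part rests on values under 1 FPKM.

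**Figure D1:**
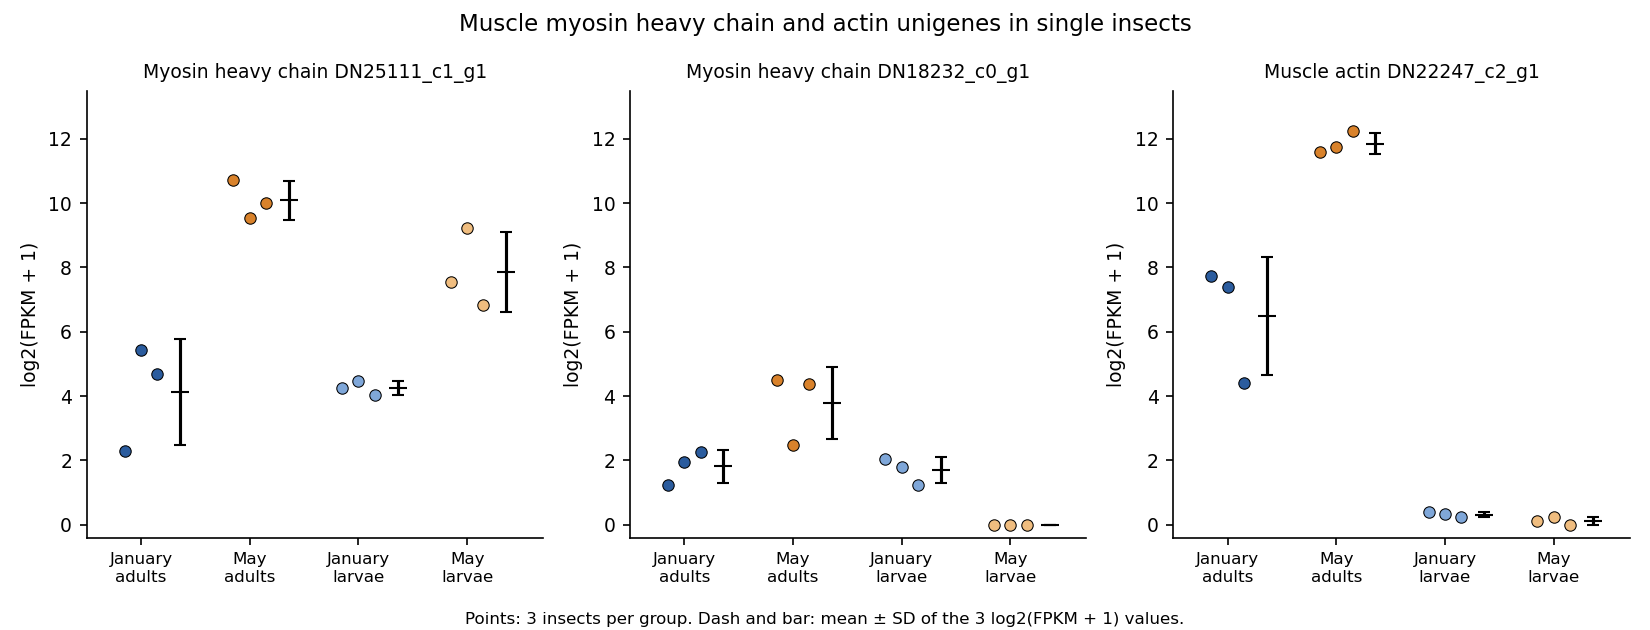
Level of each of the 3 unigenes as log2(FPKM + 1) on the vertical axis, by group on the horizontal axis, with 1 point per insect and the mean ± SD of the 3 log2 values beside it. Myosin DN25111_c1_g1 was low in both January groups and high in both May groups, myosin DN18232_c0_g1 was highest in May adults and at 0 in May larvae, and actin stayed at or below 0.31 FPKM in all larvae.

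In whole insects, fewer muscle cells and less RNA of a gene per muscle cell give the same fall and cannot be told apart. The 3 members did not move as a set. In adults all 3 were lower in January with groups that did not overlap, where 13.0% of the 23423 unigenes tested did the same. In larvae 1 of them was lower in January, beside 8.81% of 11635 unigenes, and 1 was higher, beside 53.4%. Because the members were chosen with these values known, nothing is read from those counts. A unigene was tested when it reached 1 FPKM in at least 3 libraries of a comparison. All 3 members passed in adults, and in larvae DN18232_c0_g1 passed only through its January values and actin did not pass.

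The ratios between the members within a library show how their balance shifted. Actin was 54.6, 3.96 and 0.809 times myosin DN25111_c1_g1 in January adults, against 1.82, 4.61 and 4.66 times in May adults. The January ratios enclosed the May ones, with January adult 1 far above and January adult 3 below, so the ratio did not separate the months. In January larvae the ratio was between 0.0117 and 0.0173, and in May larvae it was at most 0.000431. Those larval ratios rest on actin at or below 0.31 FPKM and leave out the other unigenes of its Trinity component.

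The minor myosin DN18232_c0_g1 made up a larger part of the pair in January adults. It stood at 35.6%, 6.80% and 15.1% of the FPKM of DN25111_c1_g1 in January adults, against 1.27%, 0.624% and 1.92% in May adults. In January larvae it stood at 17.6%, 11.7% and 8.89%, against 0% in all 3 May larvae. In both stages the January and May shares did not overlap, and the January shares of adults and larvae did. As the 2 myosins match isoforms of 1 named protein, they may be pieces or splice forms of a shared gene, which was not tested, and reads that fit both were divided between them by an estimate.

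**Figure D2:**
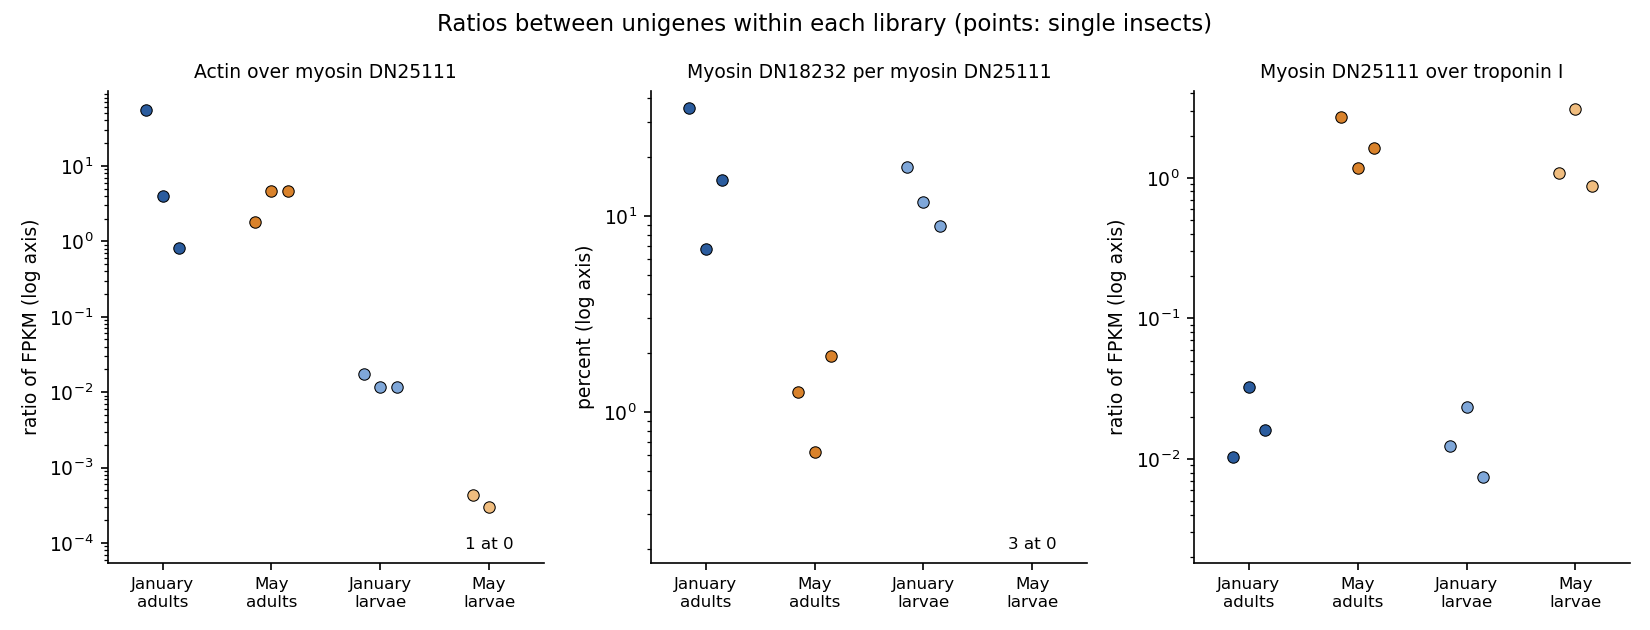
Ratios between unigenes within each library on a log axis, by group, with 1 point per insect: actin over myosin DN25111_c1_g1, myosin DN18232_c0_g1 as a percent of DN25111_c1_g1, and DN25111_c1_g1 over troponin I. Libraries with a ratio of 0 are counted at the foot of the panel. The ratio of myosin to troponin I was at most 0.0327 in January insects and at least 0.873 in May insects of either stage.

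Other unigenes of the same Trinity components were small beside the members in May adults and raised the summed level of actin in January larvae. The Trinity component of DN25111_c1_g1 held 2 other unigenes, which summed to between 0.04 and 10.7 FPKM, and the more abundant of them, TRINITY_DN25111_c1_g2, reached at most 5.18 FPKM. The component of actin held 4 others, which summed to at most 7.41 FPKM, with at most 6.52 FPKM for TRINITY_DN22247_c2_g2. With the component summed, the mean of DN25111_c1_g1 in January larvae was 21.4 in place of 18.1 FPKM, and the mean of actin was 2.79 in place of 0.247 FPKM. The summed actin component reached 5.3 FPKM in January larva 1, so the gap to the lowest January adult was 3.82-fold in place of 64.5-fold. In January larvae TRINITY_DN22247_c2_g2 was at 0 to 0.03 FPKM, so other unigenes of the component made this rise. Whether they belong to the same gene as the member was not tested. DN18232_c0_g1 was alone in its component.

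Actin was among the few abundant transcripts of May adults that stayed low in all larvae. Of 42 unigenes with at least 1000 FPKM in all 3 May adults, a limit chosen after the values were seen, 2 stayed under 1 FPKM in all 6 larvae. They were this actin and TRINITY_DN17115_c0_g1, which has no description in the annotation used here. A hypothetical protein, DN24847_c0_g1, missed that limit only in May adult 1 (748 FPKM) and had at most 0.20 FPKM in any larva. Larval reads of other actin genes may lie on other unigenes, or may be shared between near-identical actins by the read assignment, and this was not tested.

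A list of 8 other unigenes of the sarcomere and its calcium supply was examined beside the members. The list was chosen with earlier results of these data known, so its counts and p-values are not independent evidence of a direction. In adults, 1 of the 7 that passed the filter on low values was called lower in January and 0 were called higher by limma (called: adjusted p under 0.01 and a log2 difference of at least 1), and 3 of the 7 had an unadjusted p under 0.05. Over all unigenes 32.6% were called, 28.3% higher and 4.30% lower, and the median log2 difference was -0.72 for the list and 1.02 for all unigenes. The one that fell was the unc-89-like M-line protein DN27091_c0_g2, a giant kinase related to obscurin that holds thick filaments at the middle of the sarcomere. It had 0.22, 1.48 and 1.74 FPKM in January adults, against 23.9, 18.1 and 25.0 FPKM in May adults, a log2 difference of -3.52 (SE 0.52, limma adjusted p = 0.00205). This call was lost without January adult 1 (adjusted p = 0.0103) or January adult 2 (adjusted p = 0.0149).

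The calcium channels of muscle missed the threshold in adults although their groups did not overlap. The ryanodine receptor DN27713_c9_g1, which releases calcium from the store inside the muscle cell, had 2.79, 7.50 and 10.51 FPKM in January adults, against 25.0, 24.5 and 20.9 FPKM in May adults (log2 difference -1.76, SE 0.55, limma adjusted p = 0.0243). The muscle calcium channel subunit alpha-1 DN26185_c0_g1, the voltage-gated pore of the surface membrane, had 3.69, 6.81 and 3.25 FPKM in January adults, against 23.9, 14.3 and 23.6 FPKM in May adults (log2 difference -1.97, SE 0.51, limma adjusted p = 0.0107). Both were called lower when each library was set to an equal sum without the 20 unigenes of highest mean share over all libraries. That gave 3 calls in the list, and the alpha-1 subunit was also called lower with median-of-ratios scaling (adjusted p = 0.00565).

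The thin filament regulators did not follow actin. Troponin I DN26658_c1_g1, the subunit that blocks the motor at rest, had 372, 1276 and 1529 FPKM in January adults, against 630, 626 and 635 FPKM in May adults. In January 2 insects were above and 1 was below all May adults, with a log2 difference of 0.51 (SE 0.56, limma adjusted p = 0.477) that turned to -0.21 with equal sums. Tropomyosin-1 DN24109_c1_g3, which lies along the thin filament, had 23.3, 65.0 and 16.4 FPKM in January adults and 63.7, 51.7 and 35.6 FPKM in May adults, and these overlapped. The ratio of myosin DN25111_c1_g1 to troponin I was 0.0103 to 0.0327 in January adults, against 1.18 to 2.69 in May adults.

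The chaperone that folds myosin did not separate the months either. The unc-45 homolog B DN25426_c0_g1 had 78.0, 57.5 and 38.7 FPKM in January adults, against 21.9, 70.2 and 70.1 FPKM in May adults. Its log2 difference was 0.22 (SE 0.59, limma adjusted p = 0.783). The titin-like DN16938_c1_g1, a large elastic protein, ranged from 0.19 to 7.16 FPKM in January adults and from 1.26 to 11.4 FPKM in May adults. The other titin-like unigene, DN25518_c0_g3, reached at most 2.22 FPKM in any library and passed the filter in no comparison.

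In larvae 4 unigenes of the same list were higher in January, where myosin DN25111_c1_g1 was lower. Of the 6 unigenes that passed, 4 were called higher in January and 0 lower by limma (4 at an unadjusted p under 0.05), beside 35.7% called among all unigenes, 32.0% higher and 3.63% lower. The median log2 difference was 2.21 for the list and 1.26 for all unigenes, so both lay on the same side of 0. Troponin I had 1455, 897 and 2083 FPKM in January larvae, against 172, 193 and 128 FPKM in May larvae (log2 difference 3.10, SE 0.42, limma adjusted p = 0.00182). The ratio of myosin DN25111_c1_g1 to troponin I was thus 0.00740 to 0.0235 in January larvae, against 0.873 to 3.09 in May larvae, and those ratios do not depend on how libraries are scaled.

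The 3 other unigenes called higher in January larvae were under 1 FPKM in every May larva and entered the test only through their January values. The ryanodine receptor had 6.0, 3.99 and 7.11 FPKM in January larvae, against 0.23, 0.69 and 0.14 FPKM in May larvae (log2 difference 2.3, SE 0.33, limma adjusted p = 0.00213). The calcium channel subunit alpha-1 had 5.16, 4.48 and 6.26 FPKM in January larvae, against 0.15, 0.58 and 0.09 FPKM in May larvae (2.32, SE 0.29, limma adjusted p = 0.00154). The titin-like DN16938_c1_g1 had 2.92, 6.95 and 2.17 FPKM in January larvae, against 0.21, 0 and 0 FPKM in May larvae (2.12, SE 0.38, limma adjusted p = 0.00428). Tropomyosin-1 and unc-45 homolog B were not called in larvae, with log2 differences of -0.09 (SE 0.65) and -0.18 (SE 0.32).

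These larval calls depended on the scaling and on single insects. With median-of-ratios scaling 2 of the list were called higher, both calcium channels, and unc-45 homolog B was called lower, while troponin I kept a log2 difference of 1.67 with an adjusted p of 0.018. No unigene of the list was called without both larvae that share transcripts, without the filter on low values, or without January larva 1. Troponin I was lost without January larva 1 (adjusted p = 0.0134), the titin-like unigene without May larva 2 or May larva 3 (0.0171 and 0.017), and the ryanodine receptor without May larva 3 (0.0106). Without a January larva, neither the calcium channels nor the titin-like unigene passed the filter, so these calls have no check on that side.

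**Figure D3:**
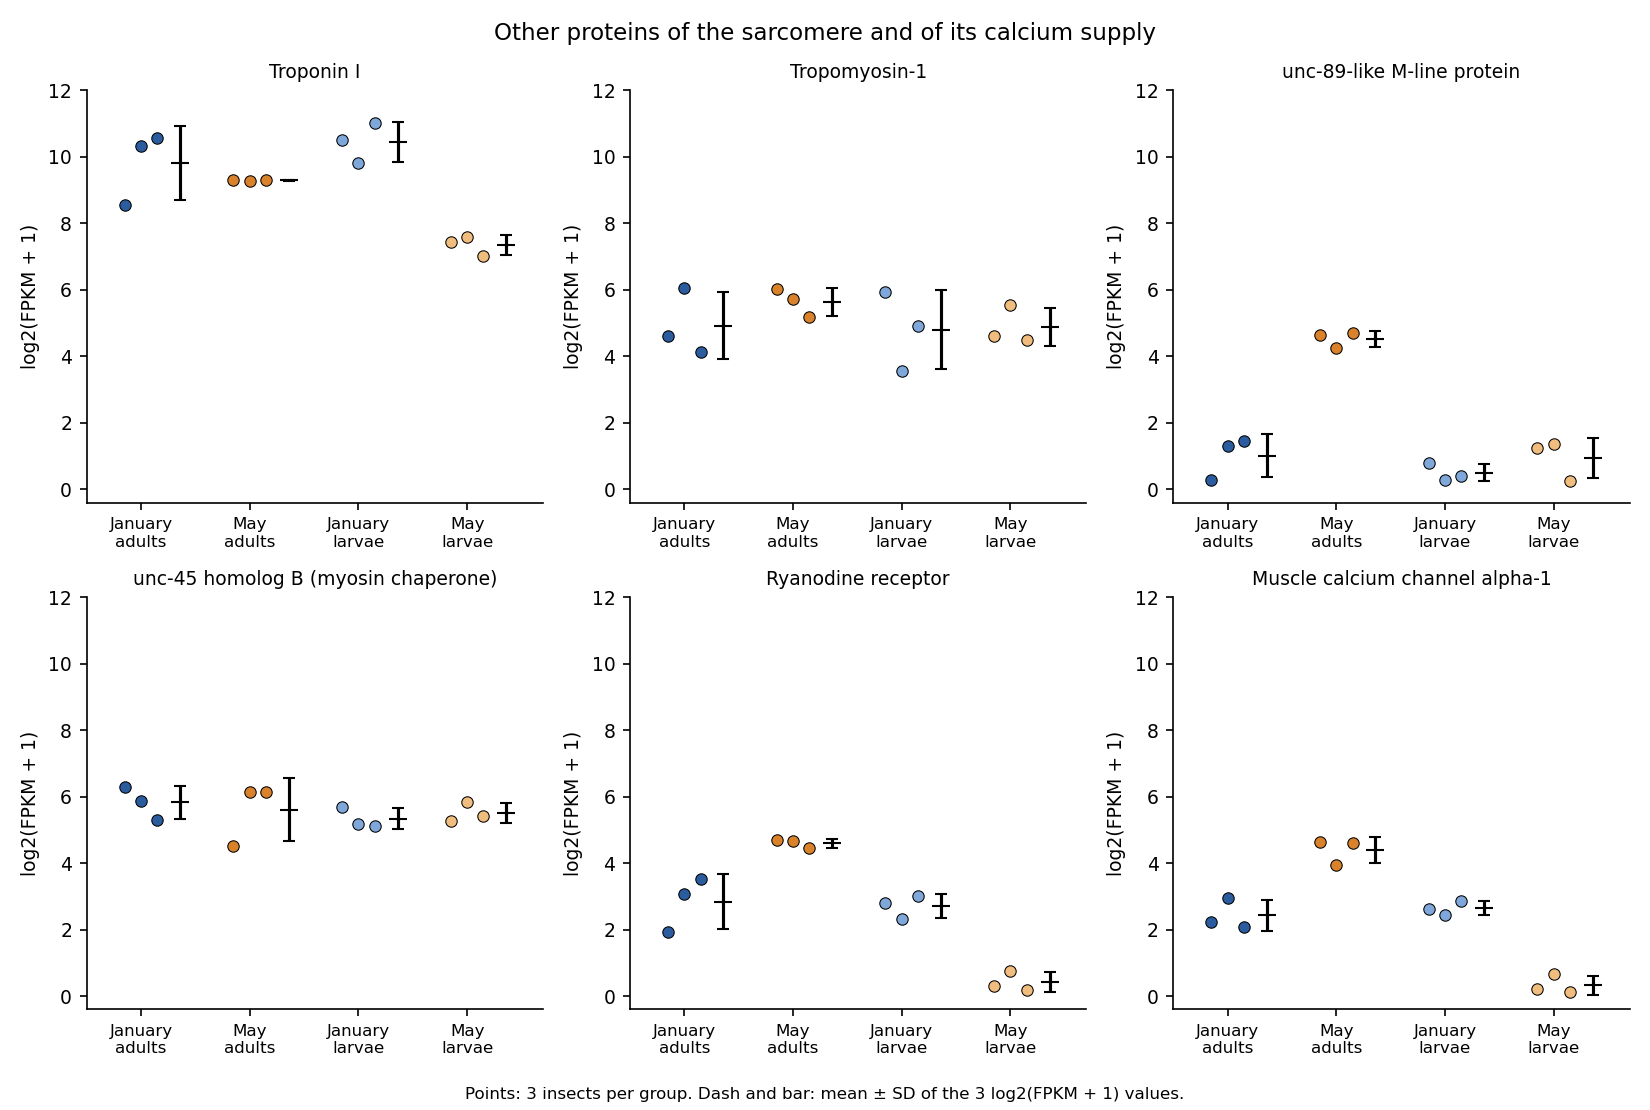
Level of 6 unigenes of the sarcomere list as log2(FPKM + 1) on the vertical axis, by group on the horizontal axis, with 1 point per insect and the mean ± SD of the 3 log2 values. The unc-89-like protein was high only in May adults among the 4 groups, both calcium channels were highest in May adults and lowest in May larvae, and tropomyosin-1 and unc-45 overlapped between all groups.

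**Figure D4:**
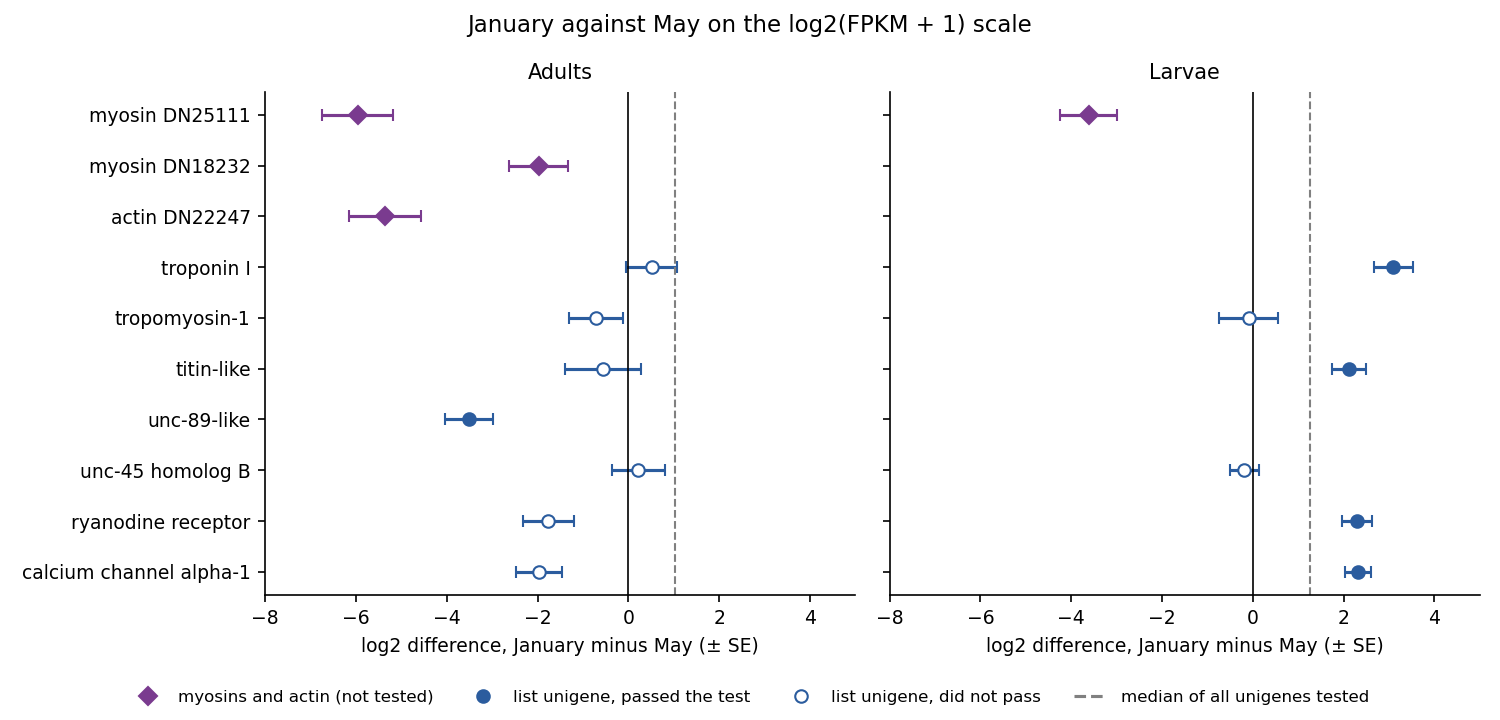
Log2 difference between January and May (January minus May, ± SE) in adults on the left and in larvae on the right. Diamonds are the myosins and actin, which were not tested, filled circles are list unigenes that passed the test, open circles did not, and the dashed line is the median of all unigenes tested. Unigenes with no value in larvae had a group at 0 or stayed under the filter, and myosin DN25111_c1_g1 lay at -3.62 in larvae where 4 list unigenes lay between 2.12 and 3.10.

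The difference between adults and larvae in their January against May effect was tested over all 12 libraries. Of 7 sarcomere unigenes that passed, 2 were called lower in adults than in larvae and 0 higher by limma (5 at an unadjusted p under 0.05), beside 1.62% called among 28117 unigenes and 1.41% called lower. They were the ryanodine receptor (-4.06, SE 0.70, limma adjusted p = 0.00837) and the calcium channel subunit alpha-1 (-4.29, SE 0.64, limma adjusted p = 0.00497). Both were called higher in January in larvae and neither was called in adults, where every January insect lay below every May insect, as for the levels of DN18232_c0_g1. The ryanodine receptor call was lost without any 1 of 11 of the 12 libraries, every one but January adult 3, at an adjusted p of 0.0127 to 0.0353, and with median-of-ratios scaling (0.0194). The calcium channel call was lost without any 1 of 10 libraries, every one but January adult 2 and January adult 3, at 0.0104 to 0.0292. Troponin I differed by -2.59 (SE 0.72, limma adjusted p = 0.0464) and was not called.

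Between stages the muscle list differed in May. Of 7 unigenes that passed, 4 were called higher in May adults than in May larvae and 0 lower by limma (5 at an unadjusted p under 0.05), beside 32.1% called among 15628 unigenes, 27.4% higher and 4.70% lower. They were the ryanodine receptor (4.19, SE 0.32, limma adjusted p = 0.00112), the calcium channel subunit alpha-1 (4.07, SE 0.37, adjusted p = 0.0014), the unc-89-like protein (3.58, SE 0.40, adjusted p = 0.00191) and troponin I (1.95, SE 0.27, adjusted p = 0.00279). With median-of-ratios scaling only the 2 calcium channels were called, and troponin I differed by 0.57 (adjusted p = 0.179). Troponin I was also lost without May adult 1 (0.0111), May adult 3 (0.0284) or May larva 3 (0.0103), and the unc-89-like protein without May adult 3 (0.023). With FPKM as deposited, both calcium channels were under 1 FPKM in every May larva and entered this test only through the adults. Without a May adult neither passed the filter, so these calls have no check on that side. All 3 members were higher in May adults than in May larvae without overlap, beside 45.5% of unigenes, and 2 of them, DN18232_c0_g1 and actin, passed the filter only through the adults.

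In January 0 of 6 sarcomere unigenes were called between adults and larvae by limma (0 at an unadjusted p under 0.05), beside 0.0680% of 23533 unigenes. The median log2 difference was -0.05 for the list and 0.75 for all unigenes. Actin was the one member of the 3 whose groups did not overlap in January, higher in adults, which held for 9.20% of unigenes.

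The wider actin cytoskeleton, a list of 9 unigenes that bind, cut or anchor actin outside the sarcomere core, was examined in the same way. This list too was chosen with earlier results known, so its counts and p-values are not independent evidence. In adults 1 of 8 was called lower in January and 0 higher by limma (3 at an unadjusted p under 0.05), beside 4.30% lower among all unigenes. It was filamin-A DN23879_c1_g3, an actin crosslinker, with 0, 0.43 and 0 FPKM in January adults against 4.07, 1.48 and 3.32 FPKM in May adults (log2 difference -1.75, SE 0.40, adjusted p = 0.00618). That call was lost without any 1 of the 3 January adults (adjusted p = 0.0215 to 0.0331). In larvae 2 of 6 were called higher in January and 0 lower (4 at an unadjusted p under 0.05), a share close to the 32.0% of all unigenes. They were gelsolin DN25258_c0_g1, which severs actin filaments (1.54, SE 0.20, limma adjusted p = 0.00158), and myotrophin DN23153_c1_g3, a regulator of the capping of actin filaments (2.20, SE 0.45, adjusted p = 0.00704). Neither was called with median-of-ratios scaling (adjusted p = 0.0107 and 0.135), and the myotrophin call was lost without any 1 of 5 larvae, every one but May larva 3 (0.0116 to 0.0385). Filamin-A and gelsolin entered these tests only through the group in which they were higher. Filamin-A did not pass the filter without a May adult, nor did gelsolin without a January larva. These calls therefore have no check on that side.

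Between stages the same list had 2 of 7 unigenes called higher in May adults than in May larvae and 0 lower by limma (3 at an unadjusted p under 0.05), a share close to the 27.4% of all unigenes. They were myotrophin, with 72.4, 59.97 and 48.2 FPKM in May adults against 2.11, 2.52 and 5.56 FPKM in May larvae (3.86, SE 0.38, adjusted p = 0.00154), and dystrobrevin beta-like DN25027_c2_g1, part of the complex that ties the muscle membrane to actin (2.36, SE 0.42, adjusted p = 0.00565). The myotrophin call was lost without May adult 3 (0.0142), and the dystrobrevin call without May larva 2 (0.0193) or May larva 3 (0.0174). Dystrobrevin beta-like was under 1 FPKM in every May larva and passed the filter only through the adults. Its call therefore has no check with a May adult left out. In January 0 of 7 were called between the stages (0 at an unadjusted p under 0.05). In the difference of effects 1 of 9 was called lower and 0 higher (3 at an unadjusted p under 0.05), beside 1.41% lower among all unigenes. It was myotrophin (-4.01, SE 0.65, limma adjusted p = 0.00645), a call lost without any 1 of 11 of the 12 libraries (0.0103 to 0.0274). Myosin-IB, spectrin alpha and tensin-1 were called in no comparison with FPKM as deposited, with at least 4.58 FPKM in every library.

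The study's own list of unigenes changed in both stages held 8 further unigenes of the cytoskeleton and of muscle. Because it was drawn from these samples, its counts and p-values are not independent evidence of a direction. In adults 2 of 8 were called lower in January and 0 higher by limma (8 at an unadjusted p under 0.05), beside 4.30% lower among all unigenes. They were integrin beta-PS DN20100_c0_g1, which anchors muscle to tendon cells in *Drosophila*, and the myosin light chain kinase match DN22995_c0_g2, whose call (-2.16, SE 0.48, adjusted p = 0.00566) was lost without any 1 of 5 of the 6 adults, every one but January adult 3 (0.0152 to 0.0239). Integrin beta-PS had 1.18, 3.37 and 4.08 FPKM in January adults, against 48.9, 30.2 and 33.8 FPKM in May adults (-3.38, SE 0.53, adjusted p = 0.00222). In January larvae it had 3.10, 1.39 and 1.40 FPKM, against 9.82, 23.5 and 12.1 FPKM in May larvae (-2.40, SE 0.47, adjusted p = 0.00613), the direction of myosin DN25111_c1_g1 in both stages. Its adult call was lost without January adult 1 (0.0105) or January adult 2 (0.0152), and its larval call without any 1 of 5 larvae, every one but May larva 1 (0.0146 to 0.0191).

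Myocyte-specific enhancer factor 2 DN20336_c0_g1, the transcription factor that drives muscle genes in insects and vertebrates, had the pattern of the calcium channels. It stands on the study's list drawn from these samples, so its p-values are not independent evidence. It had 29.1, 47.0 and 28.1 FPKM in January adults, against 158, 80.6 and 145 FPKM in May adults (-1.83, SE 0.50, limma adjusted p = 0.0131, not called). January larvae had 33.8, 39.6 and 26.6 FPKM, against 1.94, 3.10 and 1.55 FPKM in May larvae (3.44, SE 0.37, adjusted p = 0.0012). Its effect differed between the stages by -5.27 (SE 0.57, adjusted p = 0.00176), and it was 5.30 (SE 0.37, adjusted p = 0.00102) higher in May adults than in May larvae. Of these calls, the larval one was lost without January larva 1 (0.0117) and the difference of effects without May adult 3 (0.013).

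In larvae 3 of the 8 unigenes of the study's list were called higher in January and 1 lower (4 at an unadjusted p under 0.05), and between the stages in May 3 were higher in adults and 1 lower (8 at an unadjusted p under 0.05). Over all unigenes 32.0% were higher and 3.63% lower in January larvae, and 27.4% were higher and 4.70% lower in May adults. Beside Mef2, the higher ones in both comparisons were beta-centractin-like DN22805_c0_g2, part of the dynactin motor complex, and the calcium channel subunit alpha-2/delta-3 DN23276_c0_g1. The beta-centractin calls were lost without January larva 1 (0.0181) in larvae and without May adult 3 (0.0169) between the stages. Alpha-2/delta-3 was under 1 FPKM in every May larva and entered both tests only through the group in which it was higher. Its calls therefore have no check with an insect of that group left out. The one lower in May adults was the neural Wiskott-Aldrich syndrome protein match DN24457_c0_g2, an activator of actin branching, a call lost without May adult 1, May adult 3, May larva 2 or May larva 3 (0.0127 to 0.0336). In the difference of effects 3 were called lower and 0 higher (5 at an unadjusted p under 0.05), beside 1.62% called and 1.41% lower among all unigenes. Beside Mef2 they were beta-centractin-like (-3.86), a call lost without any 1 of 10 of the 12 libraries, every one but January adult 1 and January adult 3 (0.0104 to 0.0303), and alpha-2/delta-3 (-4.34), lost without any 1 of 11, every one but January adult 3 (0.0104 to 0.0303). In January 0 were called between the stages (0 at an unadjusted p under 0.05).

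Unigenes whose levels tracked each member were sought among 1525 annotated unigenes that reached 1 FPKM in at least 6 libraries, by Pearson's r of log2(FPKM + 1) over the 12 libraries. These r describe points that share 4 groups, and they carry no test. Among the unigenes closest to myosin DN25111_c1_g1 were integrin beta-PS (r = 0.977) and a hypothetical protein, DN22205_c1_g5 (r = 0.951). Closest to myosin DN18232_c0_g1 were FAM135A DN24583_c0_g1 (r = 0.955), an uncharacterized protein DN25118_c4_g2 (r = 0.954) and the calcium channel subunit alpha-2/delta-3 (r = 0.949). These 5 unigenes stand on the study's list of unigenes changed in both stages.

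Closest to actin were a hypothetical protein DN24847_c0_g1 (r = 0.997), a glucose dehydrogenase-like enzyme DN26083_c0_g1 (r = 0.956) and katanin p80 DN26521_c0_g2 (r = 0.947), a subunit of a microtubule-severing enzyme. The hypothetical protein had 45.4, 81.5 and 14.1 FPKM in January adults, against 748, 1225 and 1188 FPKM in May adults, and at most 0.20 FPKM in any larva. Actin and the minor myosin had r = 0.79 with each other, actin and DN25111_c1_g1 r = 0.46, and the 2 myosins r = 0.37. Of 17293 unigenes, 66 had an r above 0.9 with DN25111_c1_g1, 127 with DN18232_c0_g1 and 164 with actin.

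Other sources of RNA in a whole insect were followed by lists of unigenes. The 8 neural unigenes (ion channels, receptors and synaptic proteins) summed to 5.16 to 21.4 FPKM in January adults and 8.55 to 11.9 FPKM in May adults, which overlapped, and to 14.3 to 38.8 FPKM in January larvae and 3.64 to 5.45 FPKM in May larvae, which did not. In May larvae 4 of the 8 were listed at 0 in all 3 insects. With limma 0 of 3 were called in adults (1 at an unadjusted p under 0.05), beside 32.6% of all unigenes, 1 of 2 was called higher in January larvae, beside 32.0%, and 1 of 3 higher in May adults than in May larvae, beside 27.4%. The one called between the stages in May was neurexin-1, with 1.11, 1.71 and 1.8 FPKM in May adults. It had 0.18, 0.15 and 0.12 FPKM in May larvae and entered that test only through the adults. The 7 unigenes with a vertebrate match summed to at most 12.9 FPKM in any library. Nematode-matched unigenes took 0.132% to 0.257% of January adults and 0.0104% to 0.0515% of May adults. These shares may be too low, because most unigenes have no best match in the partial annotation. The part of nematode RNA in the adult differences was not tested.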

How the data were processed

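RNA was measured in 12 single whole insects. Per the labels and methods, the authors placed the reads of each library on a Trinity assembly with Bowtie2 2.3.5.1 and estimated FPKM with RSEM 1.2.31, and the FPKM deposited by the authors, rounded to 2 decimals, are the only values used. No reads per unigene are given, so counting error is unknown. The p-values rest only on the spread between the 3 insects of a group, pooled over the groups of a fit. That spread is drawn by limma toward a trend with level over all unigenes tested. The members and lists were chosen with earlier results of these data known. Named are the 3 members, all unigenes of the lists, the 3 annotated unigenes with the highest r to each member and the most abundant other unigene of a component. One unigene that this rule names is not reported here. Descriptions come from partial annotation tables of the study: 1999 rows of best protein matches and its list of unigenes changed in both stages. Sequences of the members are not shown, as none was in the sources used here. FPKM were analysed as log2(FPKM + 1) with limma 3.58.1 (trend option, two-sided) in R 4.3.3, and with Python 3.11.15, pandas 2.3.3, numpy 2.4.6 and matplotlib 3.10.9. Unigenes at 1 FPKM in at least 3 libraries of a fit were tested, with Benjamini-Hochberg adjustment over all of them, and called at an adjusted p under 0.01 with a log2 difference of at least 1. The added 1 pulls differences of low unigenes toward 0. Alternatives were an added value of 0.1, no filter, the replicate number as a block, 3 scalings (median of ratios, the same over *D. ponderosae* matches, equal sum without the 20 most abundant), all 12 libraries in one fit, an adjusted p under 0.05, component sums, and each library left out. The fits were tested on simulated data.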

Additional observations from a re-analysis of the deposited data

Results flagged for a closer look

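The January against May effect differed between adults and larvae, by limma over all 12 libraries, for 6 list unigenes. Each was called higher in January in larvae, and none of them was called in adults, where their log2 differences lay below 0. The differences, adults minus larvae on the log2 scale, were -4.06 for the ryanodine receptor DN27713_c9_g1, -4.29 for the muscle calcium channel subunit alpha-1 DN26185_c0_g1, -4.01 for myotrophin DN23153_c1_g3, -5.27 for myocyte-specific enhancer factor 2 DN20336_c0_g1, -3.86 for beta-centractin-like DN22805_c0_g2 and -4.34 for the calcium channel subunit alpha-2/delta-3 DN23276_c0_g1. Most of these calls were lost when almost any 1 library was left out, while every difference stayed at -3.48 or lower. With 1 of the 12 libraries left out in turn, the call was lost in 11 fits for the ryanodine receptor, 10 for alpha-1, 11 for myotrophin, 1 for myocyte-specific enhancer factor 2, 10 for beta-centractin-like and 11 for alpha-2/delta-3. The last 3 stand on the study's list, which was drawn from these samples. The others stand on lists chosen with earlier results of these data known.

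Myosin DN18232_c0_g1 was lower in January in adults and higher in January in larvae with no overlap of the insects, with means of 2.65 FPKM in January adults against 15.3 FPKM in May adults, and of 2.33 FPKM in January larvae against 0 FPKM in May larvae. This difference between stages was not tested. Of 28117 unigenes that reached 1 FPKM in 3 or more libraries, 1039 (3.7%) had the same pattern without overlap.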

How the results depend on the processing

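All differences of the members in adults and the larval difference of myosin DN25111_c1_g1 kept their direction under each alternative tried, with left-out libraries included. With 3 insects a group and no read numbers, the count of calls rests heavily on single libraries, and values near 0 FPKM cannot be resolved further. Scaling moved the background: with median-of-ratios scaling the median log2 difference of all unigenes in larvae was 0.23 in place of 1.26, and 56.0% in place of 89.8% of the calls were higher in January. In May adults against May larvae it was 0.15 in place of 0.98, with 49.3% in place of 85.3% of the calls higher, and for the difference of effects 0.91 in place of 0.18, with 64.0% in place of 13.0% higher. In adults an equal sum gave 0.41 in place of 1.02, with 68.5% in place of 86.8% higher.

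In January against May in adults 7632 unigenes were called, 4607 with an added value of 0.1, 1829 with no filter, 794 with all 12 libraries in one fit, 11607 at an adjusted p under 0.05, and 111 to 5844 with a library left out. The sarcomere list had 1 call there, 2 with median-of-ratios or D. ponderosae scaling, 3 with an equal sum or at an adjusted p under 0.05, and 0 to 1 with a library left out.

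In larvae 4149 unigenes were called, 374 with no filter, 2763 with median-of-ratios scaling, 2750 with D. ponderosae scaling, 2376 with all 12 libraries in one fit, 6263 at an adjusted p under 0.05, and 52 to 2424 with a library left out. Without both larvae that share transcripts, an alternative chosen after seeing the data, 411 were called. The sarcomere list had 4 calls, 0 with no filter or without both of those larvae, and 0 to 4 with a library left out. Myosin DN25111_c1_g1 differed by -3.62, and by -5.02 and -4.97 with median-of-ratios and D. ponderosae scaling.

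Between stages in January 16 unigenes were called, 5 with an added value of 0.1 or with no filter, 7 with either scaling, 230 with all 12 libraries in one fit, and 3 to 8615 with a library left out. The stage difference of actin in January was 6.18, and 8.02 with an added value of 0.1. Myosin DN25111_c1_g1 ranged from -0.77 to 0.80 there, with 0.80 without January adult 1, and DN18232_c0_g1 from -0.11 to 0.40, with -0.10 without January adult 3 and -0.11 without January larva 3.

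Between stages in May 5015 unigenes were called, 2064 with no filter, 3133 with median-of-ratios and 3121 with D. ponderosae scaling, and 79 to 4901 with a library left out. The sarcomere list had 4 calls, 2 with either scaling, and 0 to 4 with a library left out. Myosin DN25111_c1_g1 differed by 2.23, and by 0.84 and 0.91 with those scalings. Actin differed by 11.73, by 14.39 with an added value of 0.1, by 11.28 and 11.31 with those scalings and by 12.26 with an equal sum. Tensin-1 DN27272_c1_g1 differed by 0.07, and by -1.29 with median-of-ratios scaling.

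For the difference of effects 455 unigenes were called, 989 with an added value of 0.1, 118 with no filter, 1590 with an equal sum, 2449 at an adjusted p under 0.05, and 0 to 310 with a library left out. The sarcomere list had 2 calls, 1 with no filter, either scaling or without both larvae that share transcripts, 4 at an adjusted p under 0.05, and 0 to 2 with a library left out. Myosin DN25111_c1_g1 differed by -2.35, and by -0.92 and -0.97 with those scalings, and actin by -5.55, with -6.17 to -4.50 when a library was left out. Component sums gave January larvae 21.4 FPKM for DN25111_c1_g1 and 2.79 FPKM for actin.

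Replicate numbers did not pair the insects: over 12 pairs of same-numbered libraries the correlation of deviations from the group mean ran from -0.56 to 0.49, and 3 were over 0.1. With the replicate number as a block, 0 unigenes were called in larvae, 21 between stages in May and 33 for the difference of effects, and the sarcomere list had 0 calls in each of these.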
